A study of Mus musculus with 2 samples.

Results

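The R1 macrophages of the nephritic kidney were the cells that the authors' deposited annotation placed in the cluster named R1, and they numbered 353 of 7314 cells. WT kidney gave 116 of them among 5470 cells, and Vsir-/- kidney gave 237 among 1844. Both libraries were single-cell 3′ RNA-sequencing libraries of kidney cells from 8-week-old C57BL/6 mice with nephrotoxic serum nephritis (NTN). The mice had been immunized with 200 μg sheep IgG and received, by the labels, 2 μL/g of nephrotoxic serum 4 days later (the study's methods give another dose), and cells were released by a digest of 30 minutes at 37°C in liberase at 0.2 mg/mL. The control mice were wild type, and the Vsir-/- mice lacked the gene of the immune checkpoint VISTA. By their labels, CD45+ cells were sorted for WT and total kidney cells were taken for Vsir-/-, whereas the study's methods give a CD45+ sort. The number of mice behind each library is not given in the sources used here.

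Each genotype was 1 library, so no test between genotypes was possible. Differences are given as counts of unique molecular identifiers (UMIs, each marking 1 captured transcript), as UMIs per 1000000 UMIs of the summed R1 cells (CPM), and as log2 ratios of Vsir-/- over WT. Intervals are 95% intervals and cover counting error only. They do not measure the spread between mice, and every difference below compares 2 libraries.

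Resident macrophages of the kidney lie between the tubules and capillaries, take up immune complexes and dying cells, and present antigen to T cells. They are renewed largely in place, whereas R2 macrophages derive from blood monocytes that enter the inflamed kidney. C1q, the recognition molecule that starts the classical complement pathway, is made mainly by tissue macrophages and is a common label for the resident type.

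C1QA, C1QB and C1QC together form the C1q molecule, and their genes were highest in R1 in both libraries. The stretches upstream of the transcription start of C1qb and C1qc are shown because both genes lie near each other and share this pattern. They are RefSeq promoter sequences of build GRCm38.p6, matched by gene symbol, each 120 bases long and ending at the base before the start. Capitals mark the letters AGGAAG on either strand, a core bound by the macrophage factor PU.1.

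C1qb: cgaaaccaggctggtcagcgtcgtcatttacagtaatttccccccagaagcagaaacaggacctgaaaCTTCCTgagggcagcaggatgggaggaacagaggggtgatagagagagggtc

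C1qc: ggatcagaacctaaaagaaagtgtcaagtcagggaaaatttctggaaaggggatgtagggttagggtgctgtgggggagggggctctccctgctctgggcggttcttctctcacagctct

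The C1qb stretch is chr4:136886201-136886320 and the C1qc stretch chr4:136892915-136893034, both on the minus strand. AGGAAG occurred once in the C1qb stretch, on the opposite strand, and not in the C1qc stretch. It occurred in 16.3% of the 32851 RefSeq promoters over the same 120 bases. The MAF half-site TGCTGA (8.18% of promoters) and the AP-1 letters TGANTCA (3.41%) were in neither stretch on either strand. A match describes the letters in this window.

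R1 cells carried the markers of their name in both libraries. All 3 C1q genes were detected in 114 of the 116 WT cells and 225 of the 237 Vsir-/- cells. C1qa stood at 4570 CPM in WT R1 and 5366 CPM in Vsir-/- R1, C1qb at 4082 and 5044 CPM, and C1qc at 2574 and 3454 CPM. No other cluster came near these levels in WT, where NKT cells were next with 60.7 CPM of C1qa. In the Vsir-/- library the next cluster was M2-like R2, with 378 CPM. Cd72, which encodes an inhibitory receptor shared with B cells, was at 626 CPM in WT and 555 CPM in Vsir-/- R1, above the 173 and 101 CPM of the B cluster. Csf1r, the receptor for macrophage colony-stimulating factor, did not single out R1. It was at 661 CPM in WT R1 and 670 CPM in Vsir-/- R1, below the 719 and 999 CPM of the Other R2 cluster.

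**Figure D1:**
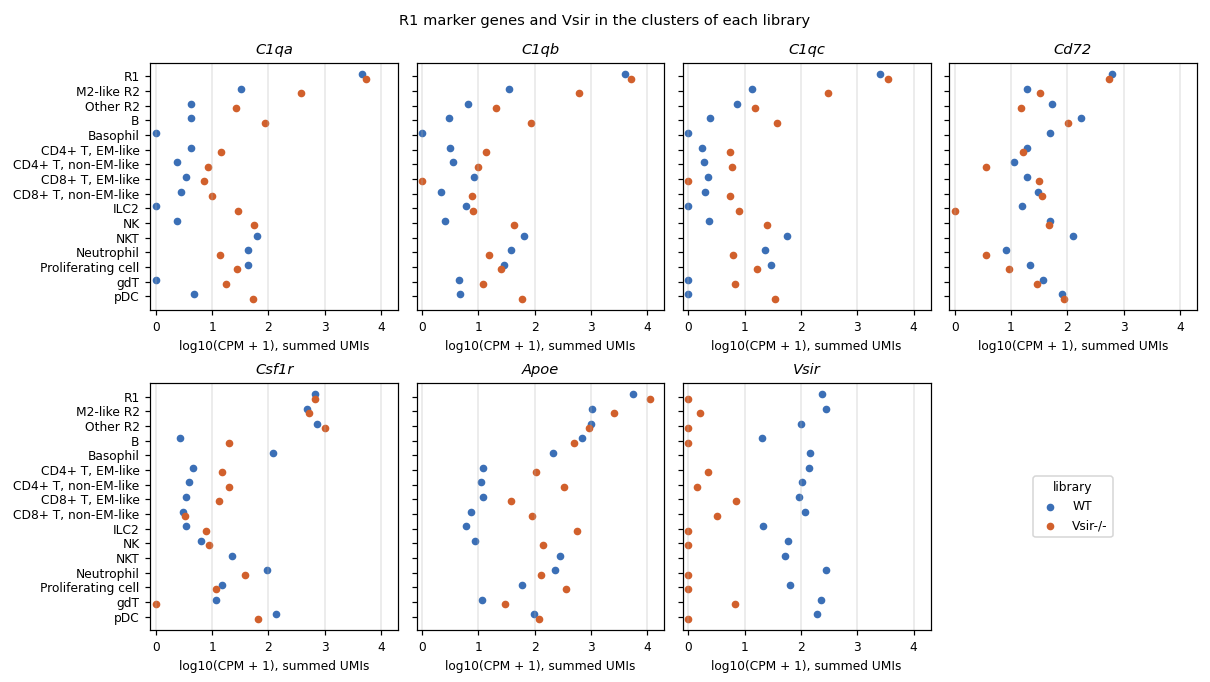
Level of the 6 R1 marker genes and of Vsir in each cluster with at least 10 cells, as log10(CPM + 1) of the summed UMIs on the horizontal axis, with 1 point per library (blue, WT; orange, Vsir-/-). The C1q genes, Cd72 and Apoe were highest in R1 of both libraries, Csf1r was highest in Other R2, and Vsir was near 0 throughout the Vsir-/- library.

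Most single R1 cells held all of these transcripts. All 6 markers were detected in 87 of the 116 cells from WT and 163 of the 237 from Vsir-/-, and 1 cell in each library had fewer than 3. No R1 cell lacked all 6. The median R1 cell held 4868.5 UMIs and 1730.5 genes in WT, and 5921 UMIs and 2125 genes in Vsir-/-. Cells with fewer than 1000 UMIs numbered 7 of 116 in WT and 25 of 237 in Vsir-/-. The pan-leukocyte gene Ptprc, which encodes CD45, had a UMI in 94.8% of WT R1 cells (exact binomial interval 89.1 to 98.1) and in 78.1% of Vsir-/- R1 cells (72.2 to 83.2).

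Vsir checked the labels. WT R1 held 163 Vsir UMIs in 76 of 116 cells, or 235 CPM (200 to 273). Vsir-/- R1 held none, and a count of 0 allows up to 1.87 CPM, which makes Vsir at least 125-fold lower. The whole Vsir-/- library held 8 Vsir UMIs in 8 cells. In WT, R1 came after 2 clusters for Vsir, neutrophils at 281 CPM (261 to 303) and M2-like R2 at 275 CPM (259 to 291). Both intervals overlapped that of R1. In the WT R1 cells low in markers of other cell types, a set defined below, Vsir was at 307 CPM. That is above the values of the 2 clusters, which are from all their cells. The rank of R1 for Vsir was therefore not settled by these counts.

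R1 made up 2.12% (1.76 to 2.54) of WT cells and 12.9% (11.4 to 14.5) of Vsir-/- cells. Among the 3 macrophage clusters it made up 15.3% (12.8 to 18.0) of 760 WT cells and 44.2% (40.0 to 48.5) of 536 Vsir-/- cells. With only cells that had a Ptprc UMI, the Vsir-/- share among macrophages was 39.2%. The sort named in the labels differed between the libraries and can set shares of cells, and the sort and the genotype cannot be told apart here.

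The nearest neighbours of R1 were the R2 clusters, M2-like R2 and Other R2, pooled here. Because the clusters were built on these cells, the genes that part them are a description. Genes with at least 100 UMIs in R1 of a library were ranked in it. In WT, the 12 of them with the highest ratio of R1 over R2 were Dst, C1qc, Mgl2, Cadm1, C1qa, C1qb, Mmp12, Dab2, Mmp13, Ccl12, Hpgds and Creb5. In Vsir-/-, they were Mmp13, Slco2b1, Cadm1, Cd5l, Hpgds, Pf4, Asb2, Ccl12, Tanc2, Nes, Slc40a1 and Dnase1l3. The lists shared 4 genes, or 33.3% of each, under the minimum of 100 UMIs. Tanc2, Nes, Pf4, Asb2, Slco2b1 and Dnase1l3, with 60 to 96 UMIs in WT R1, were left out there by that minimum, and their WT log2 ratios of R1 over R2 ran from 5.91 to 7.81, above the 5.84 of Creb5. The shared genes were Mmp13, a collagenase, Cadm1, an adhesion molecule, Ccl12, a monocyte chemoattractant, and Hpgds, which makes prostaglandin D2.

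They were lower in R2 in both libraries. Mmp13 was at 291 CPM in WT R1 against 3.17 CPM in WT R2, and at 169 CPM in Vsir-/- R1 against no UMI in Vsir-/- R2. Cadm1 was at 281 and 1.41 CPM in WT R1 and R2, and at 225 and 3.27 CPM in Vsir-/-. Hpgds was at 151 and 2.47 CPM in WT, and at 147 and 2.86 CPM in Vsir-/-. Cd5l, which encodes a scavenger protein of tissue macrophages, was among the Vsir-/- genes through 1 cell, which gave 99.3% of its 141 UMIs, and was listed at 0 in the whole WT library.

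Several R1 genes set R1 apart from R2 less sharply in Vsir-/-. C1qa was 7.49 higher in R1 than in R2 on the log2 scale in WT and 4.33 higher in Vsir-/-. Pooled R2 had 25.4 CPM of C1qa in WT and 267 CPM in Vsir-/-. Of the Vsir-/- R2 UMIs, 633 were in 45 of 168 M2-like R2 cells and 20 in 15 of 131 Other R2 cells, so the level came from a minority of the cells of 1 cluster. Dab2, a scavenger and endocytic adaptor, was at 1.94 CPM in WT R2 and 33.9 CPM in Vsir-/- R2. For Mgl2, a galactose-binding lectin, the R2 values were 1.41 and 70.7 CPM, while R1 had 296 and 445 CPM.

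All 15 genes of infiltrating monocytes were lower in R1 than in pooled R2 in both libraries, and their sum was 2507 CPM in WT R1 and 1232 CPM in Vsir-/- R1. Plac8 was the most abundant in WT R1, at 799 CPM against 5807 CPM in R2, and Lgals3, galectin 3, in Vsir-/- R1, at 410 against 1515 CPM. Chil3, a chitinase-like protein of monocytes, was at 11.5 CPM in WT R1 and 485 CPM in WT R2, and at 3.75 and 346 CPM in Vsir-/-. Fn1, fibronectin, was at 8.63 CPM in WT R1 and 16.2 CPM in Vsir-/- R1, against 389 and 1019 CPM in R2. Ccr2, the receptor that brings monocytes out of the marrow, was detected more broadly, at 253 CPM in WT R1 and 151 CPM in Vsir-/- R1, against 719 and 640 CPM in R2.

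Between the libraries, 8862 genes had at least 20 UMIs in R1. Of these, 1204 were at least 2-fold higher in Vsir-/- R1 (13.6%) and 778 at least 2-fold lower (8.78%), and the median log2 ratio was -0.01. Among the 7806 genes within 4-fold in pooled B, NK and neutrophil cells the order turned, with 510 higher and 655 lower. In M2-like R2, 8.11% of 9751 genes were at least 2-fold higher and 7.61% lower, and in Other R2 6.71% of 7555 genes were higher and 9.52% lower. In pooled B, NK and neutrophil cells, 14.5% of 11431 genes were at least 2-fold higher in Vsir-/- and 10.6% at least 2-fold lower. Of the genes higher in R1, 863 (71.7%) were also at least 2-fold higher in those other cells, and of the genes lower in R1, 285 (36.6%) were also lower there.

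Part of this was common to the whole library. The WT library listed 5348 of 20299 features at 0, and every feature counted in WT was found in at least 2 cells. The Vsir-/- library listed 1574 features at 0 and counted 708 in exactly 1 cell. Of features at 0 in WT, 2017 had at least 20 UMIs in Vsir-/-, and 330 of these were among the genes higher in R1. In the other direction, 414 features were at 0 in the whole Vsir-/- library with at least 20 UMIs in WT, and 58 of these were among the genes lower in R1. RefSeq lists 112 of those WT symbols as synonyms of a symbol counted in the Vsir-/- library alone. Aes and Tle5, 2 symbols of 1 gene, are an example, with 145 UMIs of Aes in WT R1 and 442 UMIs of Tle5 in Vsir-/- R1. Once joined, that gene differed by 0.40 on the log2 scale.

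A library-wide 0 is therefore given here as listed at 0, with no fold. Such genes remain in the counts of genes past 2-fold, for all genes and for the lists. All 330 genes tested in R1 at 0 in the whole WT library were counted as higher. All 58 at 0 in the whole Vsir-/- library were counted as lower. Ifi30, a lysosomal reductase that prepares antigens, was listed at 0 in every WT cluster and had 856 UMIs in Vsir-/- R1. The proton pump subunit gene Atp6v0c had 4 UMIs in WT R1 and 1111 in Vsir-/- R1, with a log2 ratio of 6.74 in R1 and 6.88 in pooled B, NK and neutrophil cells. Nme2, a nucleoside diphosphate kinase, was at 5.32 in R1 and 7.31 in the pooled cells, and Rnasek at 5.32 and 6.40. Spp1, which encodes osteopontin, had 4 UMIs in WT R1 and 863 in 221 of 237 Vsir-/- R1 cells. Its ratio was 6.38 in R1 and 6.25 in the pooled cells, where it reached 1380 CPM against 539 CPM in Vsir-/- R1. Each of these 4 genes was thus also far higher outside R1, and for Atp6v0c, Nme2 and Rnasek the ratio was larger there.

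**Figure D2:**
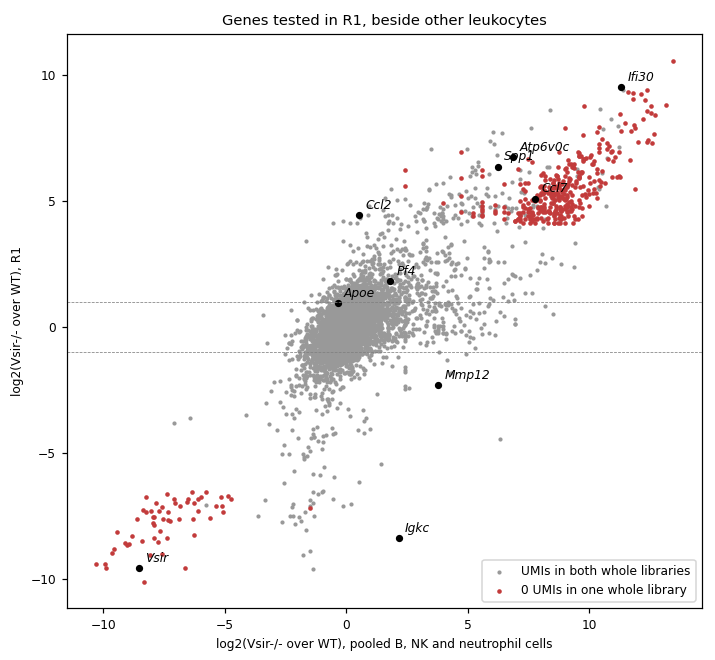
Log2 ratio of Vsir-/- over WT in R1 (vertical) against the same ratio in pooled B, NK and neutrophil cells (horizontal), with 1 point per gene tested in R1. Red points had 0 UMIs in one whole library, dashed lines mark 2-fold in R1, and Atp6v0c and Spp1 had high ratios in both, while the ratio of Ccl2 was 4.44 in R1 and 0.55 in the pooled cells.

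RNA of other cell types also differed between the libraries. Kidney tubule markers gave 111 CPM (25 genes summed) in WT R1 and 2666 CPM in Vsir-/- R1, with a UMI in 25 of 116 and 237 of 237 cells. The most abundant was Gpx3 in Vsir-/-, with 785 UMIs, and 18 of the 25 genes had none in WT R1. Neutrophils of the Vsir-/- library, which should lack these transcripts, held 4130 CPM of them. Endothelial markers gave 8.63 CPM in WT R1, where 7 of 9 genes were at 0, and 1510 CPM in Vsir-/- R1, led by Emcn with 610 UMIs.

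The reverse was true of lymphocyte and neutrophil transcripts. B cell markers gave 4621 CPM in WT R1, led by Igkc with 1796 UMIs, and 285 CPM in Vsir-/- R1, with 2 of 6 genes at 0. T cell markers gave 574 CPM in WT R1, led by Trbc2, and 20.6 CPM in Vsir-/- R1, where 1 of 6 was at 0. Neutrophil markers gave 1771 and 134 CPM, led by S100a9 in both. NK cell markers gave 63.3 and 10.6 CPM. Podocyte and stromal markers gave 7.20 and 196 CPM, and erythrocyte markers had no UMI in WT and 7.49 CPM in Vsir-/-. Plasmacytoid dendritic cell markers gave 334 and 355 CPM, with Tcf4 most abundant in both.

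B cell and endothelial transcripts were concentrated in some cells, and tubule transcripts were spread over nearly all Vsir-/- R1 cells. More than 10 B cell marker UMIs per 10000 were found in 39 of 116 WT R1 cells and in 10 of 237 Vsir-/- cells. For endothelial markers the counts were 0 of 116 and 23 of 237, and for tubule markers 3 of 116 and 226 of 237. Cells at or under 10 per 10000 for each of the T cell, B cell, NK cell, neutrophil and endothelial lists numbered 64 in WT and 192 in Vsir-/-, and are called here cells low in the 5 lists. The tubule list was not among the 5, and these Vsir-/- cells still held 653 UMIs of Gpx3 and 416 of Umod, against none in WT. Genes of the sex chromosomes also parted the libraries. Xist had 1774 UMIs in Vsir-/- R1 and none in WT R1, and Ddx3y 40 in WT R1 and none in Vsir-/- R1. The study's methods give all mice as male, which the Xist UMIs of the Vsir-/- library go against, and sex and genotype cannot be told apart.

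**Figure D3:**
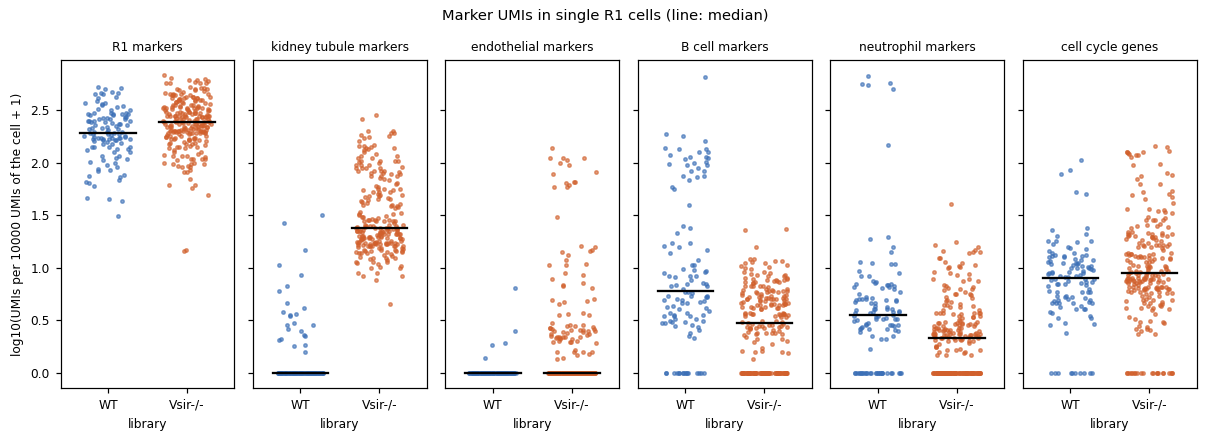
UMIs of 6 gene lists in each R1 cell, as log10(UMIs per 10000 UMIs of that cell + 1), with 1 point per cell and a line at the median of each library. R1 markers overlapped between the libraries, every Vsir-/- cell held tubule transcripts, and a separate group of WT cells was high in B cell markers.

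The genes at the ends of the R1 comparison with at least 100 UMIs, at least 4 of them in each library, included genes of both kinds. The highest were Atp6v0c, Spp1, Nme2, Rnasek, Fabp4 and Ccl7, and the lowest Igkc, Ptprcap, Ltb, Trbc2, Ms4a4b and S100a8. Fabp4, a fatty acid carrier of capillary endothelium, had 448 UMIs in 30 Vsir-/- cells, 155 of them in 1 cell, and its log2 ratio of 5.15 was 0.17 in cells low in the 5 lists. Igkc, an immunoglobulin light chain, had a ratio of -8.37, which was -1.72 in those cells. Igkc is itself in the B cell list that helped to choose those cells, so its level there was limited by that choice. Further genes are named from those whose R1 level, in the library where it was higher, was at least 3 times that of pooled B, NK and neutrophil cells. A gene enters this set through the library in which it is high, so the difference helps to choose it and the genes named are a description.

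Among those with at least 100 UMIs, the highest in Vsir-/- R1 were Ccl7, Ccl2, Eng, Iigp1, Pltp, Nrp1, Ifi44, Nostrin, Hes1, Pf4, Trem2 and Cd93. Eng, Nrp1, Nostrin and Cd93 are also known from endothelium. The ratio of Eng was 2.91 in all R1 cells and -0.08 in cells low in the 5 lists, and that of Nostrin went from 2.06 to 0.50. The ratios of Nrp1 and Cd93 went from 2.26 to 0.90 and from 1.73 to 1.01. The other 8 genes were at least 1.74 higher on the log2 scale in both sets of cells. Several of these ratios rested on few WT UMIs in cells low in the 5 lists. Ccl7 had 1 there, Ifi44 and Trem2 had 2 each, Ccl2 had 7 and Hes1 had 9.

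**Figure D4:**
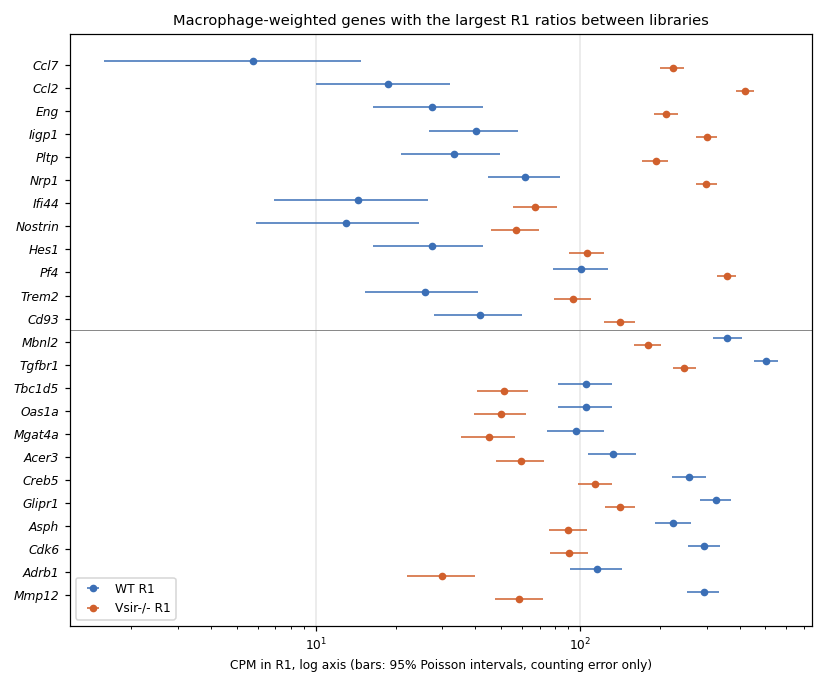
CPM in R1 on a log axis for the 12 highest and 12 lowest log2 ratios among genes at 3 times the level of pooled B, NK and neutrophil cells (blue, WT; orange, Vsir-/-). Bars are 95% Poisson intervals of the summed UMIs. The intervals of the 2 libraries did not overlap for Ccl2, at 18.7 and 420 CPM, or for Mmp12, at 292 and 58.7 CPM.

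Ccl2 and Ccl7 were among the genes with the highest ratios in R1, and chemokines as a list were spread widely. Ccl2, the main ligand of CCR2, was at 18.7 CPM (9.96 to 32.0) in WT R1 and 420 CPM (389 to 453) in Vsir-/- R1, a log2 ratio of 4.44. It had a UMI in 9 of 116 and 96 of 237 cells. In M2-like R2 the levels were 146 and 181 CPM, a ratio of 0.31. In the B cluster of the Vsir-/- library 4.55% of cells had a UMI, with a median depth of 3596.5 UMIs. Of its 88 cells, 53 held a B cell marker UMI and 16 a C1qa UMI, so it was not B cells alone. After thinning to 1000 UMIs per cell, 3 of 109 WT and 46 of 212 Vsir-/- R1 cells kept a Ccl2 UMI.

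Ccl7, another CCR2 ligand, had 4 UMIs in 2 WT cells and 357 UMIs in 53 Vsir-/- cells, a ratio of 5.11 (3.91 to 7.16). Among the pooled B, NK and neutrophil cells of the Vsir-/- library it had UMIs in 1 of 67 NK cells only, and none in WT. Ccl12 was at 363 CPM in WT R1 and 863 CPM in Vsir-/- R1, a ratio of 1.25 that was 0.81 in cells low in the 5 lists, and it was at 0.514 and 19.4 CPM in the pooled cells. Pf4, platelet factor 4, which perivascular macrophages also express, was at 101 CPM in 23 cells and 358 CPM in 122 cells, a ratio of 1.82 that was 1.79 in those cells. Cxcl10, an interferon-induced attractant of T cells, was at 20.1 and 108 CPM. Ccl8 was listed at 0 in the whole WT library and had 70 UMIs in Vsir-/- R1.

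Of the 4 most abundant chemokines of R1, Ccl12 was past 2-fold and the other 3 were not. Ccl4, an inflammatory chemokine, was at 1521 CPM in WT and 1922 CPM in Vsir-/-, a ratio of 0.34 that was -0.35 in cells low in the 5 lists. Ccl3, another of them, was at 626 and 661 CPM. Cxcl16, a transmembrane ligand for CXCR6 on T cells, was at 448 and 576 CPM. Over the 19 chemokine genes tested, 11 (57.9%) were at least 2-fold higher and 1 (5.26%) lower, against 13.6% and 8.78% of all genes tested in R1, with a median log2 ratio of 1.82. The 11 include every tested chemokine gene listed at 0 in the whole WT library, and 14 of the 19 were counted in both libraries. The lower one was Ccl5, at -1.07 in all R1 cells and 1.41 in cells low in the 5 lists. With genes at 0 set to the 3 UMIs that a count of 0 allows, the median was 1.53, and over the 14 genes counted in both whole libraries it was 0.72. Over the genes within 4-fold in pooled B, NK and neutrophil cells it was 0.34. M2-like R2 had a median of 1.74 for this list, and those pooled cells 1.50.

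All 4 tested of the 9 perivascular macrophage genes counted were at least 2-fold higher, against 13.6% of all genes tested in R1. By gene the list was also higher elsewhere. In M2-like R2, 3 of 5 genes were higher (against 8.11% of all genes there), with a median of 2.13. In pooled B, NK and neutrophil cells 3 of 5 were higher (against 14.5%) and 1 lower, with a median of 1.82. The sum of the list in M2-like R2 went the other way, from 448 CPM in WT to 387 CPM in Vsir-/-. Mrc1, the mannose receptor, was at 112 CPM in WT and 302 CPM in Vsir-/- R1, and had a UMI in 41 of 116 and 138 of 237 cells. Stab1, a scavenger receptor, was at 66.2 and 200.5 CPM, and Gas6, the bridging ligand of the receptors that take up dying cells, at 17.3 and 104 CPM. Their ratios were 1.42, 1.59 and 2.53, and 1.03, 1.27 and 2.21 in cells low in the 5 lists. Gas6 had a ratio of 8.21 in pooled B, NK and neutrophil cells, larger than in R1.

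Of 18 genes of lipid handling and tissue injury tested, 8 (44.4%, against 13.6% of all genes) were at least 2-fold higher and none lower, with a median of 0.87 that was 0.58 in cells low in the 5 lists. Spp1 and Fabp4, described above, were among the 8. The list was also high outside R1. In M2-like R2, 10 of 18 genes were higher (against 8.11% of all genes there), with a median of 1.14. In the pooled other cells 7 of 17 were higher (against 14.5%), with a median of 0.93. Apoe, the lipoprotein of lipid export, was the most abundant, at 5665 CPM in WT and 11126 CPM in Vsir-/- R1, a ratio of 0.97 (0.92 to 1.02) just short of 2-fold. Trem2, a lipid-sensing receptor of macrophages, was at 25.9 CPM in 8 WT cells and 93.7 CPM in 71 Vsir-/- cells, with 10 of the 18 WT UMIs in 1 cell. In the B cluster of the Vsir-/- library, where 53 of 88 cells held a B cell marker UMI, 2.27% of cells had a Trem2 UMI. Pltp, which moves phospholipid between lipoproteins, was at 33.1 and 192 CPM, a ratio of 2.51. Apoe had a ratio of 1.28 in M2-like R2, -0.16 in Other R2 and -0.35 in the pooled other cells.

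Of 27 lysosomal genes tested, 4 (14.8%) were at least 2-fold higher, near the 13.6% of all genes, and none lower. In the pooled other cells 7 of 27 were higher, against 14.5% of all genes there. In R1 the median of 0.29 was -0.01 in cells low in the 5 lists. Ctsd, cathepsin D, was at 104 and 270 CPM, and Cstb, an inhibitor of cathepsins, at 60.4 and 203 CPM. Ctsl, cathepsin L, was at 66.2 and 179 CPM, a ratio of 1.42 that was 0.69 in cells low in the 5 lists. The fourth was Atp6v0c. The abundant Cst3 and Ctss, a cathepsin inhibitor and the protease that trims the class II chain, had ratios of 0.08 and 0.13.

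Iron-handling genes had a median of 0.74, with 6 of 15 (40.0%, against 13.6% of all genes) at least 2-fold higher and none lower. In the pooled other cells the median was 0.55, with 2 of 15 higher and 1 lower, against 14.5% and 10.6% of all genes there. Ftl1, the ferritin light chain, was at 1993 CPM in WT and 4278 CPM in Vsir-/- R1, in 111 and 233 cells, and Fth1, the heavy chain, at 4140 and 6928 CPM. Hmox1, which breaks down heme, was at 67.6 and 171 CPM. Slc40a1, the iron exporter, was at 27.3 and 72.4 CPM, with its 116 Vsir-/- UMIs in 11 of 237 cells. Ferritin was also higher outside R1, with Ftl1 at 0.82 and Fth1 at 0.84 in pooled B, NK and neutrophil cells.

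Of 17 complement genes tested, 7 (41.2%) were at least 2-fold higher and 1 (5.88%) lower, against 13.6% and 8.78% of all genes, with a median of 0.42 that was 0.03 in cells low in the 5 lists. In M2-like R2, 7 of 15 were higher (against 8.11% of all genes there), with a median of 0.88. In the pooled other cells 6 of 13 were higher (against 14.5%), with a median of 0.64. C1q was not among them, with ratios of 0.23, 0.30 and 0.42 for C1qa, C1qb and C1qc, and of -0.09, -0.07 and 0.03 in cells low in the 5 lists. C4b, a component of the classical pathway, had 3 UMIs in WT R1 and 95 in 41 Vsir-/- cells, a ratio of 3.57 (2.19 to 6.08). Its serum partner C2 had 7 and 59 UMIs, and Cfp, properdin, 21 and 145 UMIs. C4b was at 11.4 and 6.57 CPM in M2-like R2, so its ratio there was -0.74.

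Transcripts of class II molecules, which present antigen to helper T cells, were abundant in R1 of both libraries. Cd74, the invariant chain, was at 35132 CPM in WT and 26397 CPM in Vsir-/-, a ratio of -0.41 that was -0.69 in cells low in the 5 lists. H2-Aa was at 11970 and 11587 CPM, H2-Ab1 at 11514 and 10596 CPM, and H2-Eb1 at 10618 and 11089 CPM. In cells low in the 5 lists their ratios were -0.34, -0.46 and -0.25. In M2-like R2, by contrast, H2-Aa was at 698 CPM in WT and 3341 CPM in Vsir-/-. Of 12 class II genes tested in R1, 1 was at least 2-fold higher, which was Ifi30, and 3 were lower, against 8.78% of all genes, with a median of -0.08. The 3 were H2-Oa, H2-Ob and H2-DMb2, which B cells express, and in cells low in the 5 lists their ratios were -0.70, 0.12 and 1.30. Of 20 class I genes, none passed 2-fold in either direction, and the median was 0.16.

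Of 23 genes of the interferon gamma response tested, 3 were at least 2-fold higher, a share near the 13.6% of all genes, and none lower, with a median of 0.32. Iigp1, an immunity-related GTPase, was at 40.3 CPM in WT and 301 CPM in Vsir-/- R1, Gbp7, a guanylate-binding protein, at 51.8 and 118 CPM, and the other was Cxcl10. The ratio of Iigp1 was 2.88 in R1 and 4.09 in the pooled other cells. The type I list had a median of -0.07 over 20 genes, with Ifi44 and Rsad2 higher (10%) and Mx1 lower (5%). Both shares were below the 13.6% and 8.78% of all genes. Ifi44 was at 14.4 and 67.5 CPM, and Rsad2, viperin, at 38.9 and 144 CPM. In cells low in the 5 lists the ratio of Rsad2 went from 1.87 to 0.69, under 2-fold, and that of Ifi44 from 2.17 to 1.95. Mx1 had 24 UMIs in WT R1 and was listed at 0 in the whole Vsir-/- library. Oas1a, a sensor of viral RNA, was lower, at 105 and 49.96 CPM.

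Genes lower in Vsir-/- R1, among those at 3 times the level of the pooled other cells, were Mmp12, Adrb1, Cdk6, Asph, Glipr1, Creb5, Acer3, Mgat4a, Oas1a, Tbc1d5, Tgfbr1 and Mbnl2. Mmp12, macrophage elastase, had 203 UMIs in 34 of 116 WT cells and 94 UMIs in 21 of 237 Vsir-/- cells. Its level was 292 CPM (253 to 335) in WT and 58.7 CPM (47.4 to 71.8) in Vsir-/-, a ratio of -2.31. After thinning, 19 of 109 WT and 5 of 212 Vsir-/- cells kept an Mmp12 UMI. In M2-like R2 the order was the opposite, with 2.73 CPM in WT and 63.9 CPM in Vsir-/-.

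Adrb1, the beta-1 adrenergic receptor, was at 115 and 30.0 CPM, and Cdk6, a cyclin-dependent kinase, at 294 and 90.6 CPM. Tgfbr1, a receptor chain for transforming growth factor beta, was at 504 CPM in 89 WT cells and 247 CPM in 140 Vsir-/- cells, and its ratio was -1.03 in R1 and -0.05 in the pooled other cells. Creb5, a transcription factor, was at 258 and 114 CPM. All 12 ratios were between -2.80 and -1.30 in cells low in the 5 lists.

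Of 12 genes of infiltrating monocytes tested, 6 (50.0%, against 8.78% of all genes) were at least 2-fold lower and none higher, with a median of -0.92, against 0.56 in the pooled other cells. Plac8, abundant in Ly6C+ monocytes, was at 799 CPM in 42 WT cells and 85.6 CPM in 29 Vsir-/- cells. Ly6c2, the Ly6C antigen, was at 157 and 30.0 CPM. Neutrophils or lymphocytes express these genes as well. In cells low in the 5 lists the median of the list was -0.02, with Ly6c2 at -0.01 and Plac8 at -1.82.

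Of 11 genes of patrolling monocytes tested, 5 (45.5%, against 8.78% of all genes) were at least 2-fold lower, 6 were not past 2-fold and none was higher, with a median of -0.69 in all R1 cells and -1.06 in cells low in the 5 lists. The pooled B, NK and neutrophil cells were lower for this list as well, with a median of -0.56. There 5 of 12 genes were lower, against 10.6% of all genes, and none higher. Nr4a1, the nuclear receptor that patrolling monocytes need, was at 160 CPM in WT and 53.7 CPM in Vsir-/- R1, and Spn, CD43, at 132 and 46.8 CPM. In Other R2, where Nr4a1 was at 922 and 1200 CPM, its ratio was 0.38. Nr4a1 was also a member of the dissociation stress list. Of 8 dendritic cell genes tested, 1 was at least 2-fold higher and 1 lower (12.5% each), near the 13.6% and 8.78% of all genes. The lower one was Ccr7, with 58 UMIs in WT R1 and 1 in Vsir-/- R1.

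Receptor, cytokine and uptake lists differed in their share of genes past 2-fold. Of 16 checkpoint and costimulatory genes tested, 2 (12.5%) were at least 2-fold higher and 2 lower, against 13.6% and 8.78% of all genes, with a median of 0.02, and Vsir and Havcr2 were the lower ones. Lilrb4a, an inhibitory receptor, was at 82.0 and 243 CPM, a ratio of 1.56 that was 2.40 in the pooled other cells. Of 8 Fc receptor genes, Fcrls alone passed 2-fold (12.5%, near the 13.6% of all genes higher). It had 1 UMI in WT and 90 in Vsir-/- R1, a ratio of 4.71 (2.77 to 10.61). Of 14 inflammatory cytokine genes, 1 (7.14%) was at least 2-fold higher and none lower, against 13.6% and 8.78% of all genes, with a median of -0.05. Il1b, interleukin 1 beta, was at 728 and 431 CPM. Of 17 genes of apoptotic cell uptake, 4 (23.5%) were higher and 1 (5.88%) lower, against 13.6% and 8.78% of all genes, with a median of 0.49 that was 0.06 in cells low in the 5 lists and 1.16 in the pooled other cells.

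Alternative activation genes had a median of 0.99, with 5 of 11 (45.5%, against 13.6% of all genes) at least 2-fold higher. Over the genes within 4-fold in pooled B, NK and neutrophil cells the direction turned, to -0.35. Retnla, a secreted product of these macrophages, was listed at 0 in the whole WT library and had 87 UMIs in Vsir-/- R1, all in 1 cell. Igf1, insulin-like growth factor 1, was less narrow, with 4 UMIs in WT and 81 UMIs in 34 Vsir-/- cells. In M2-like R2 the alternative activation list had a median of 1.78, with 7 of 12 genes higher (against 8.11% of all genes there). Growth factor and matrix genes had a median of 0.74, with 7 of 16 (43.8%) higher and 1 (6.25%) lower, against 13.6% and 8.78% of all genes, 0.09 in cells low in the 5 lists and 1.79 in the pooled other cells. In M2-like R2 their median was 1.91, with 11 of 17 higher and 3 lower, against 8.11% and 7.61% of all genes there. Sparc and Timp3, which endothelium expresses, were listed at 0 in the whole WT library.

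**Figure D5:**
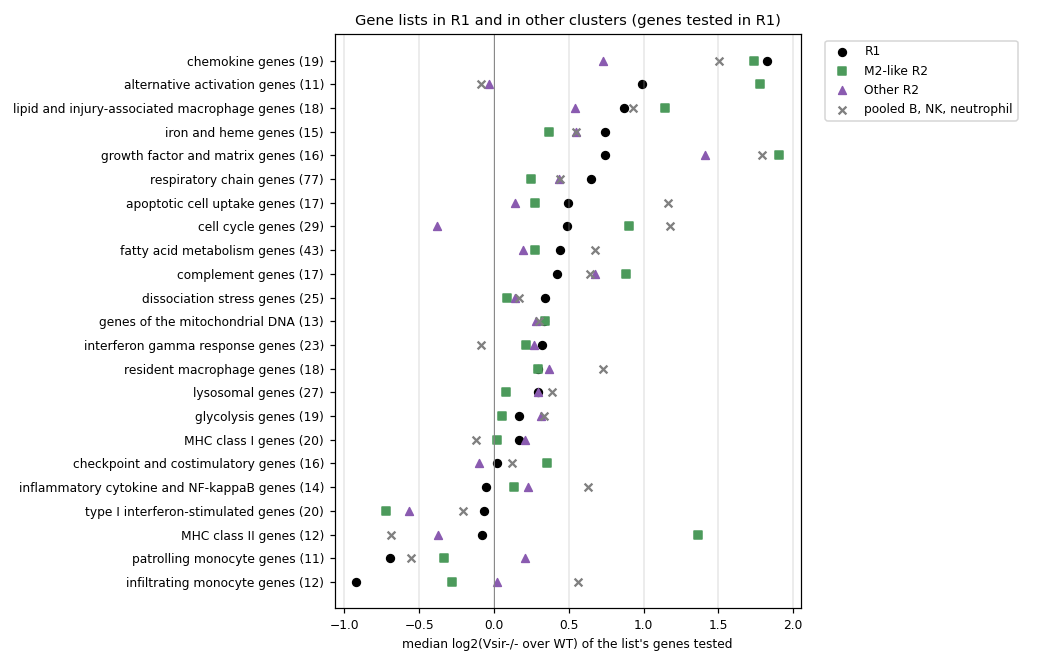
Median log2 ratio of Vsir-/- over WT for each gene list, markers of other cell types left out, with at least 10 genes tested in R1 (number in parentheses), in R1, both R2 clusters and pooled B, NK and neutrophil cells. Of these lists, chemokines had the highest R1 median, 1.82, and infiltrating monocyte genes the lowest, -0.92, and class II genes were at 1.36 in M2-like R2 and -0.08 in R1.

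Respiratory chain genes, of which 13 of 77 (16.9%) were at least 2-fold higher, near the 13.6% of all genes, and none lower, had a median of 0.65 in R1, 0.25 in M2-like R2, 0.44 in Other R2 and 0.44 in the pooled other cells. Cox5a, a subunit of cytochrome oxidase, was at 183 and 413 CPM. Of 43 fatty acid metabolism genes, 11 (25.6%) were higher and 1 (2.33%) lower, against 13.6% and 8.78%, with a median of 0.44 in R1, -0.0086 after thinning to 1000 UMIs and 0.68 in the pooled other cells. Etfb, which passes electrons from fatty acid oxidation, was at 37.4 and 139 CPM. Glycolysis genes had a median of 0.17, with 1 of 19 (5.26%) in each direction, below the 13.6% and 8.78% of all genes. The 13 genes of the mitochondrial DNA had a median of 0.34, with none past 2-fold, and of 1.01 in cells low in the 5 lists. Dissociation stress genes had a median of 0.34, with 1 of 25 (4%) in each direction, also below the shares of all genes. The higher one was Hspb1 and the lower one Nr4a1, which was in the patrolling monocyte list as well. Resident macrophage genes had a median of 0.30, with 5 of 18 (27.8%, against 13.6%) higher and none lower, of -0.09 in cells low in the 5 lists and of 0.73 in the pooled other cells. Despite its name, the list did not single out R1. Its sum was 12577 CPM in WT R1 and 16040 CPM in Vsir-/- R1. It was 28540 and 24689 CPM in M2-like R2, and 13143 and 16910 CPM in Other R2.

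Transcripts of dividing cells were found in R1 of both libraries. A UMI of Mki67 or Top2a, both of dividing cells, was found in 7.76% of WT (3.61 to 14.2) and 16.9% of Vsir-/- R1 cells (12.3 to 22.3). After thinning to 1000 UMIs the shares were 4 of 109 and 16 of 212 cells, or 3.67% (1.01 to 9.13) and 7.55% (4.38 to 11.97), with overlapping intervals. Both R2 clusters were also higher in Vsir-/-. M2-like R2 had 7.02% in WT and 11.3% in Vsir-/-, and Other R2 had 6.38% and 13.7%. After thinning, M2-like R2 had 0.73% and 3.14%, and Other R2 1.67% and 3.94%. Neutrophils, which do not divide, had 3.05% in WT at a median depth of 3565 UMIs and 3.80% in Vsir-/- at 4097 UMIs. Of 29 cell cycle genes tested, 7 (24.1%, against 13.6% of all genes) were at least 2-fold higher and none lower. The median of the list was 0.49 in all R1 cells, 2.15 in cells low in the 5 lists and 1.18 in the pooled other cells. Several ratios behind the 2.15 rested on few WT UMIs. In cells low in the 5 lists, Tk1 had no WT UMI, Ube2c had 3, Stmn1 had 4 and Mcm3 had 5. The better counted Hmgb2 and Tubb5, with 101 and 51 WT UMIs there, had lower ratios of 0.69 and 1.34. Stmn1, which regulates the spindle, was at 92.1 CPM in 13 WT cells and 229 CPM in 66 Vsir-/- cells.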

How the data were processed

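The authors sequenced 10x Chromium 3′ libraries and deposited 1 matrix of UMI counts, not normalized, for 20299 features, with a table that gives each cell's library and cluster. The submitters' processing notes name Cell Ranger 3.1.0, R 4.0.3, Seurat 3.2.3 and the build mm9. Per the study's methods, genes found in few cells, cells with few UMIs and cells with a high mitochondrial share were dropped, and SCTransform was used to merge the libraries. In the deposited table the cell with the fewest UMIs had 501, and no cell was above 10.0% mitochondrial UMIs. The deposited percent of mitochondrial UMIs was used as a filter in alternatives, and the deposited UMAP score was not used. Clusters and their names are the authors'.

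The UMIs of the R1 cells were summed per library (694926 in WT, 1601175 in Vsir-/-), and genes with at least 20 UMIs over both were compared after adding 0.5 UMI to each sum. A log2 ratio of 1 or more, or -1 or less, was called. Intervals were exact Poisson for CPM, Clopper-Pearson for shares and exact conditional for ratios. Cells were thinned to 1000 UMIs for shares. No doublets were removed, since R1 cells with markers of other types were counted instead, and 5 barcodes, none in R1, occurred in both libraries. With 1 library a genotype, no tool gave a p-value. The code was tested on simulated data. Scripts ran in Python 3.11.15 with numpy 2.4.6 and scipy 1.17.1.

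The cells, lists and rules were chosen with earlier results of these data known. Named genes were the 6 R1 markers and Vsir, the 6 highest and 6 lowest ratios among genes with at least 100 UMIs and at least 4 in each library, the 12 highest and 12 lowest of those at 3 times the level of pooled B, NK and neutrophil cells, the 12 genes with the highest R1 over R2 ratio per library among those with at least 100 UMIs in its R1 cells, and for each list the 4 most abundant members and the 4 past 2-fold with most UMIs. Genes outside this rule, used as controls or as markers of other cells, were chosen after their values were seen. Some genes that the rule names are not reported here.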

Additional observations from a re-analysis of the deposited data

Results flagged for a closer look

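In 3 of the genes named by rule, the libraries differed at least 2-fold one way in R1 and at least 2-fold the other way in M2-like R2, with both counting intervals away from 0. Mmp12 had a log2 ratio of Vsir-/- over WT of -2.31 in R1 and 4.50 in M2-like R2. Creb5 had -1.18 in R1 and 1.27 in M2-like R2, at 5.69 and 13.7 CPM there. Ifi44 had 2.17 in R1 and -1.13 in M2-like R2. The difference between the clusters was not tested, since each genotype was 1 library.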

How the results depend on the processing

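No paired analysis was possible because each genotype was 1 library, and leaving out a library was likewise impossible. List medians were called moved past 0.25 on the log2 scale, a limit set after seeing the data. Of 361 recomputed shares, counts and list medians, 308 stayed within their limits. Of the named genes, 19 of 35 moved past their counting interval and 1 reversed in cells low in the 5 lists, 17 of 34 moved after thinning, 15 of 41 with the mean over cells and 8 of 39 without T cell transcripts. With only Ptprc-positive cells, R1 was 39.2% of Vsir-/- macrophages. The counts of higher and lower genes were 273 and 193 after thinning to 1000 UMIs (2329 genes tested), 276 and 181 with at least 100 UMIs (3269 tested), and 3480 and 2544 with no filter (15522 tested). They were 510 and 655 among genes within 4-fold in pooled B, NK and neutrophil cells, so lower genes then outnumbered higher ones, and 1135 and 744 with older symbols joined, an alternative that, like the limit of 4-fold, was added after seeing the data. Thinning gave medians of -0.36 for infiltrating monocyte, 0.022 for complement, -0.35 for inflammatory cytokine, 0.29 for chemokine, -0.59 for checkpoint, -0.0045 for apoptotic cell uptake, 0.49 for iron, 0.078 for growth factor, -0.0086 for fatty acid, 0.64 for mitochondrial DNA and 0.96 for respiratory chain genes. The mean over cells gave -0.61 for infiltrating and -0.97 for patrolling monocyte, 0.14 for complement, -0.29 for checkpoint, 0.47 for growth factor, 1.41 for cell cycle, 0.97 for mitochondrial DNA and 0.99 for respiratory chain genes. R1 cells without T cell transcripts gave -1.02 for patrolling monocyte, 0.73 for alternative activation and 0.78 for cell cycle genes. At most 5% mitochondrial UMIs gave 1.28 for alternative activation, and cells with Ptprc and 3 markers gave 1.51 for chemokines. At least 100 UMIs gave 0.49 for chemokines and 0.27 for growth factors, and no filter gave -1.38 for infiltrating monocyte and 0.74 for complement genes. The next 3 alternatives were also added after seeing the data. Cells low in the 5 lists gave -0.094 for resident macrophage, -0.018 for infiltrating and -1.06 for patrolling monocyte, 0.034 for complement, 0.58 for lipid, -0.31 for inflammatory cytokine, 0.062 for apoptotic cell uptake, -0.015 for lysosomal, 0.086 for growth factor, 2.15 for cell cycle and 1.01 for mitochondrial DNA genes, and turned Eng to -0.082. Vsir-/- cells at or under the median tubule share gave 1.31 for chemokine and 1.003 for growth factor genes. Genes within 4-fold in the pooled cells gave -0.35 for alternative activation, the reverse direction, 0.34 for chemokine, 0.20 for apoptotic cell uptake and 0.12 for growth factor genes. The causes were not tested.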
